A study of Homo sapiens with 8 samples.

Results

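The solvent-treated state of LP-1, a human multiple myeloma cell line, was examined in the 4 RNA-seq libraries of cells that had received DMSO for 6 h, out of 8 libraries in the series. DMSO is the solvent of the compounds given in the other 4 libraries, which were not used here. The 4 libraries were chosen by their treatment label and split by the identifiers in their titles. One pair of replicates carries SL identifiers, in the naming series of the libraries treated with SGC-CBP30, an inhibitor of the CBP and EP300 bromodomains. The other pair carries CM identifiers, in the naming series of the libraries treated with CPI203, an inhibitor of the BET bromodomains. Both pairs carry the same labels for cell line, medium, solvent and time, and no genetic change is named for either. The study calls its compound-treated RNA-seq samples biological replicates with paired DMSO controls, and whether the DMSO replicates came from separate cultures is not given in the sources used here, so p-values measure the spread between these libraries. Experiment, culture, library preparation and sequencing run all go with the pair and cannot be told apart. The comparison asks which features of LP-1 were shared by the 4 control libraries and which differed between the control pairs, and every difference below is CM minus SL.

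Plasma cells are the antibody-secreting end stage of the B cell lineage, and myeloma is their tumour. IRF4, PRDM1 (BLIMP1) and XBP1 establish this stage while the B cell program of PAX5, BCL6 and CIITA is switched off, and XBP1 enlarges the secretory pathway through which antibody leaves the cell. CIITA is the coactivator that sets transcription of the HLA class II genes, whose products present antigen to helper T cells, and it is normally silenced in plasma cells. LP-1 cells carry a translocation that joins the immunoglobulin heavy chain locus to the region of WHSC1 (NSD2) and FGFR3.

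The authors deposited 1 RPKM value per gene and library, that is, its reads scaled by gene length and by the number of mapped reads. The 14625 genes that averaged 1 RPKM or more across the 4 libraries were tested on log2(RPKM + 0.1), a scale that understates changes of low genes. Depth was estimated from the steps in the low values at 34.4 and 34.1 M reads for the SL pair and 28.7 and 26.5 M reads for the CM pair. Replicates were close to each other, with an SD of the log2 difference of 0.103 in the SL pair and 0.114 in the CM pair over the 8176 genes averaging 10 RPKM or more. Between single libraries of different pairs this SD was 0.327 to 0.365.

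The most abundant transcripts of LP-1 among the deposited values were those of its antibody. The 13 mitochondrially encoded genes were listed at 0 in all 4 libraries, so this ranking does not cover them. IGLV3-21, a lambda light chain variable gene (hg19 chr22:23054173-23055688), had the highest mean of all genes, with 6448 and 6613 RPKM in the SL pair and 6579.8 and 6515 RPKM in the CM pair. The lambda constant gene IGLC1 was second, with 2129 and 2302 RPKM in the SL pair and 2119.8 and 2155 RPKM in the CM pair. The libraries of the pairs overlapped for both light chain genes. The heavy chain constant gene IGHG1 followed with 1899 and 1938 against 1475 and 1441 RPKM (SL pair before CM pair here and below), a log2 difference of -0.40 ± 0.029 (adjusted p = 3.7e-05). IGJ, which encodes the joining chain of polymeric antibody, had 1426 and 1414 against 1779.7 and 1920.0 RPKM (0.38 ± 0.038, adjusted p = 0.00020). The value after ± is the standard error of the limma fit with n = 2 libraries in each pair, and p-values are adjusted over all genes tested. IGHG1 and IGJ differed by more than the spread between replicates, in opposite directions, but by less than 1.5-fold. Where copies of antibody genes share sequence, as taken up below, the share of reads between them is uncertain. The values of single copies such as IGLC1 and IGHG1 are given with that limit. The 20 most abundant genes also held B2M, the light chain of HLA class I, the poly(A)-binding protein PABPC1, the actin ACTG1, the chaperone HSPA8, the glycolytic enzymes ALDOA and ENO1, and translation genes such as EEF1A1, RPL30 and RPS6.

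The plasma cell factors were expressed in every library. IRF4 (hg19 chr6:391738-411447) had 215 and 211 RPKM in the SL pair and 228 and 228 RPKM in the CM pair, a log2 difference of 0.10 ± 0.034 that missed the threshold (adjusted p = 0.053). PRDM1 had 47.5 and 49.2 against 54.2 and 51.7 RPKM (0.13 ± 0.049, adjusted p = 0.067). XBP1 had 239 and 248 against 333 and 334 RPKM, a gap under 1.5-fold that exceeded the replicate spread (0.45 ± 0.034, adjusted p = 4.7e-05). MYC, a transcription factor of growth that IRF4 activates in myeloma, had 281 and 296 against 247 and 239.6 RPKM (-0.25 ± 0.039, adjusted p = 0.0020), also under 1.5-fold. A gene was called when its adjusted p was under 0.05 and its difference at least 1.5-fold. Over all genes tested, 3.84% were called higher in the CM pair and 3.99% lower, 7.82% in either direction. Of 19 tested members of the plasma cell factor list, 1 was called higher and 3 lower. RUNX3, a Runt factor of lymphocytes, fell from 43.3 and 39.9 RPKM to 22.4 and 22.1 RPKM (-0.90 ± 0.059), and the interferon regulatory factor IRF2 also fell (39.1 and 38.4 against 23.8 and 25.5 RPKM, -0.65 ± 0.057). ETV6 was also lower (2.86 and 2.72 against 1.57 and 1.64 RPKM, -0.76 ± 0.15), with a difference of -0.54 and no call at a pseudocount of 1. The higher gene was POU2F2 (OCT2), with 0.688 and 0.770 against 1.43 and 1.22 RPKM (0.78 ± 0.23, adjusted p = 0.030). Its call was lost at a pseudocount of 1 (0.42), when genes of every level entered the fit, and without SL replicate 1, CM replicate 1 or CM replicate 2, and its difference ranged from 0.67 to 0.88 when 1 library was left out. In bulk RNA, more cells with a transcript and more of it per cell cannot be told apart, for these and all later genes.

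Surface markers of plasma cells were present in all 4 libraries. TNFRSF17 (BCMA), a receptor for survival signals, had 116 and 126 against 139 and 145 RPKM (0.24 ± 0.049). SDC1 (CD138), the syndecan that defines plasma cells in the clinic, had 43.9 and 47.2 against 63.6 and 57.5 RPKM (0.41 ± 0.062, and 0.62 after a correction for GC content and transcript length, where it was called). CD38 had 29.6 and 27.9 against 29.4 and 31.3 RPKM, and the libraries of the pairs overlapped. A set of 8 plasma cell markers joined SDC1, CD38, TNFRSF17 and SLAMF7 with the factors IRF4, PRDM1, XBP1 and POU2AF1. All 8 exceeded 1 RPKM in mean, and XBP1 was the highest. Their summed level, which is thus not one of surface markers alone, was 803 and 828 RPKM in the SL pair and 966 and 964 RPKM in the CM pair. Of 24 tested members of the plasma cell surface list, 3 were called lower and 1 higher, against 3.99% and 3.84% of all genes tested. The lower ones were the orphan receptor GPRC5D (12.1 and 14.4 against 6.09 and 6.15 RPKM, -1.09 ± 0.099), the hyaluronan receptor CD44 (49.3 and 49.2 against 28.9 and 30.9 RPKM, -0.72 ± 0.053) and the lymphocyte receptor LY9 (5.32 and 6.55 against 3.78 and 2.83 RPKM, -0.83 ± 0.16). LY9 was not called when genes of every level entered the fit. The costimulatory receptor CD28 was higher (10.2 and 9.69 against 17.7 and 16.8 RPKM, 0.78 ± 0.072).

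Genes of the translocated region were close in the pairs. WHSC1 had 77.5 and 77.2 RPKM in the SL pair and 75.4 and 75.2 RPKM in the CM pair, and FGFR3 had 35.6 and 36.9 against 35.7 and 32.5 RPKM. CCND2, a D-type cyclin, had 101 and 108 against 81.3 and 76.9 RPKM (-0.40 ± 0.049, adjusted p = 0.00055), and the transcription factor MAF had 42.9 and 43.6 against 31.0 and 29.4 RPKM (-0.52 ± 0.052, adjusted p = 0.00021). Of 7 tested members of the list of translocation and cyclin genes none was called in either direction. In limma 5 had an adjusted p under 0.05, all lower in the CM pair, against 20.2% of all genes tested. The median of the list was -0.29, and -0.14 after the correction for GC content and transcript length.

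Most surface genes of earlier B cells were under 1 RPKM, whereas most factors of the B cell program were not. Of 15 entries in the surface list 12 averaged under 1 RPKM over the 4 libraries, against 5 of 15 in the factor list. The E protein TCF3 had 194 and 198 against 176 and 167 RPKM, and its relative TCF4 had 79.4 and 72.8 against 80.9 and 87.7 RPKM. The surface protein MS4A1 (CD20) reached at most 0.0313 RPKM in any library, BCL6 0.0582 RPKM and CD79A 0.138 RPKM, and PAX5 was listed at 0 in all 4. CD79B stood apart from its partner CD79A, at 22.1 to 24.8 RPKM. Of the 6 mature B cell markers, CIITA alone exceeded 1 RPKM. The SRC-family kinase BLK had 10.2 and 9.36 against 2.67 and 2.65 RPKM (-1.84 ± 0.10, adjusted p = 7.9e-06). ID3, which blocks E proteins, went the other way with 6.27 and 6.78 against 16.7 and 16.2 RPKM (1.32 ± 0.079, adjusted p = 1.2e-05).

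**Figure D1:**
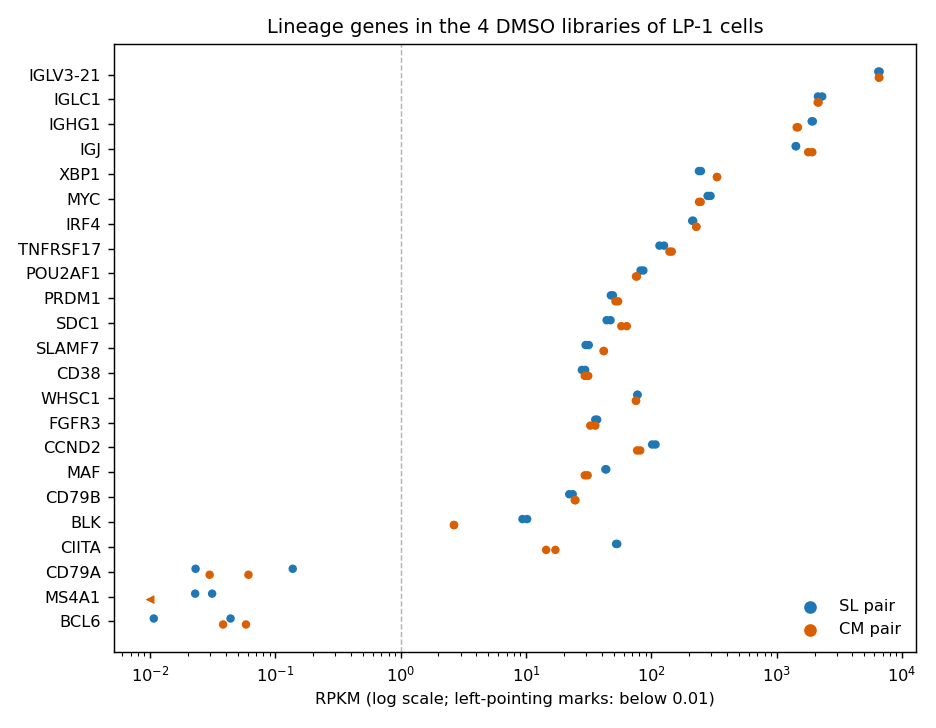
RPKM on a log scale of selected lineage genes in each of the 4 DMSO libraries, with 1 point per library, blue for the SL pair and orange for the CM pair. The plasma cell factors and surface markers lie well over 1 RPKM in every library, MS4A1, BCL6 and CD79A lie under 1 RPKM, and CIITA and BLK separate the pairs.

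Most markers of other cells were scarce. The summed level of 11 T and NK cell markers was 0.155 and 0.13 RPKM in the SL pair and 1.32 and 1.13 RPKM in the CM pair. The highest of them was CD2 at a mean of 0.272 RPKM, and GNLY and KLRD1 were listed at 0. CD2, CD3D, CD3E, CD3G, CD5 and CD7 were higher in both CM libraries than in both SL libraries. The libraries of the pairs did not overlap, in either direction, for 71.5% of all genes tested. CD3D had 0 and 0 against 0.375 and 0.381 RPKM. CD5 was near the floor, at 0.009 and 0.0091 against 0.0322 and 0.035 RPKM. So was CD3G, at 0 and 0 against 0.0129 and 0.0281 RPKM. The cytotoxic granule gene NKG7 went the other way with 0.0772 and 0.0845 against 0.0410 and 0 RPKM. CD8A was over 0 only in SL replicate 1, and CD4 only in CM replicate 2. None of these markers reached the level at which genes were tested. The 9 myeloid markers summed to between 0 and 0.604 RPKM with MPO, FCN1 and ELANE at 0, and the 7 stromal and epithelial markers found to between 0.057 and 0.383 RPKM with EPCAM and KRT8 at 0. A longer myeloid list of 16 genes summed to 3.48 and 2.11 against 0.933 and 1.22 RPKM. Most of this was CD68, a lysosomal protein abundant in macrophages that other cells also make, with 2.38 and 2.00 against 0.725 and 1.22 RPKM (-1.12 ± 0.26, adjusted p = 0.0098). It was called lower in the CM pair, with a difference of -0.70 at a pseudocount of 1, and was not called when genes of every level entered the fit. The 6 erythroid markers summed to 0.802 and 0.773 RPKM against 3.25 and 3.59 RPKM, nearly all of it the beta globin gene HBB, while HBA1 and HBA2 were listed at 0. The delta globin gene HBD was not among these markers, and its higher levels are given below. The part of other cells in the differences below was not tested. The mitochondrially encoded genes were listed at 0 in all 4 libraries.

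Of the 14625 genes tested, 1144 were called between the pairs, 561 higher and 583 lower in the CM pair. At a threshold of 2-fold, 228 were higher and 195 lower. The libraries of the pairs did not overlap for 71.5% of all genes tested, and 38.1% had an adjusted p under 0.05, so that many differences were small but larger than the spread between replicates. The fitted difference was within 10% for 5521 genes, 37.8% of those tested. Of 10714 protein-coding genes 5.48% were called, 232 higher and 355 lower, and of 2237 processed pseudogenes 16.8% were called, 238 higher and 137 lower.

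**Figure D2:**
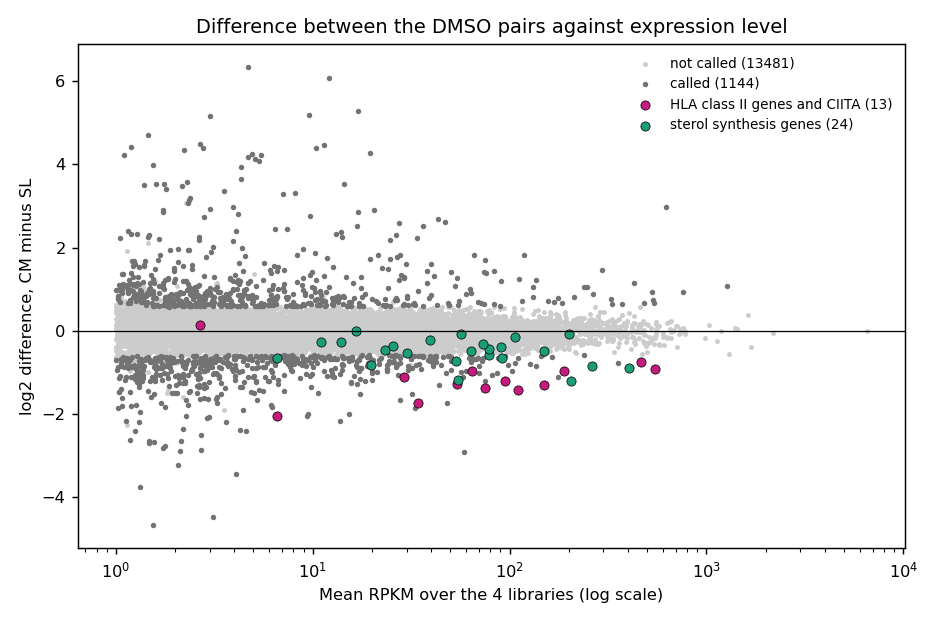
Mean RPKM over the 4 libraries (log scale) against the log2 difference, CM minus SL, of the 14625 genes tested, with the 1144 called genes, the class II genes and the sterol synthesis genes marked. Genes lie on both sides of 0 at every level, and the marked class II genes, except HLA-DOB, lie below 0.

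HLA class II genes were lower in the CM pair. Of 12 members tested, 11 were called lower and none higher, against 3.99% and 3.84% of all genes tested. Their median log2 difference was -1.15, against 0.01 over all genes tested. Their coactivator CIITA (hg19 chr16:10971054-11026079) had 53.3 and 52.2 RPKM in the SL pair and 17.1 and 14.4 RPKM in the CM pair, a log2 difference of -1.74 ± 0.079 (adjusted p = 2.2e-06). Both CM libraries were under both SL libraries for CIITA and for each of the 11 called members. The libraries of the pairs did not overlap, in either direction, for 71.5% of all genes tested.

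The stretches before the start of 4 of these genes are shown because the members moved together and class II genes are known to be read through an X box, which the class II factors bind, and a CCAAT box, which nuclear factor Y binds. The sequences are from RefSeq (GRCh38.p14), from the minus strand of chromosome 6, and run 5′ to 3′. Capitals mark the X box core and the next CCAAT letters of either strand, which read ATTGG in all but HLA-DMB. The gap between the marked stretches was 22 bases in HLA-DRB1 and HLA-DQB1, 23 in HLA-DMA and 55 in HLA-DMB. Whether the letters marked in HLA-DMB act as its CCAAT box was not tested.
HLA-DRB1 (chr6:32589885-32589932): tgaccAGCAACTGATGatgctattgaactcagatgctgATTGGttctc
HLA-DQB1 (chr6:32666736-32666783): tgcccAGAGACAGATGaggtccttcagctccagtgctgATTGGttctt
HLA-DMA (chr6:32953167-32953215): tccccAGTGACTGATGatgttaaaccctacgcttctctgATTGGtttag
HLA-DMB (chr6:32941041-32941121): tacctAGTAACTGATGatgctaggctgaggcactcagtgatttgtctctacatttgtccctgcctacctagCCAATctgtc
The X box core lay between 79 and 121 bases before the start, and this motif was chosen after the values were seen. On either strand of the 250 bases before the start it occurred in 5 of the 11 class II genes found in the RefSeq promoter table (HLA-DMA, HLA-DMB, HLA-DQB1, HLA-DRB1 and HLA-DRB5), against 0.875% of 27305 genes in that table. CCAAT occurred in 10 of the 11, against 37.0% of genes. A match of letters is a description and not a measured site.

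The antigen-presenting chains fell together. HLA-DRA, the nearly invariant alpha chain of HLA-DR (hg19 chr6:32407618-32412823), had 574 and 591 RPKM in the SL pair and 346 and 353 RPKM in the CM pair (-0.74 ± 0.033, adjusted p = 1.9e-06). Its partner HLA-DRB1 had 210.3 and 215 against 85.3 and 87.0 RPKM (-1.30 ± 0.037, adjusted p = 2.1e-07). In HLA-DP, the beta chain gene HLA-DPB1 had 158 and 164 against 61.6 and 59.2 RPKM (-1.41 ± 0.043) and the alpha chain gene HLA-DPA1 had 244 and 257 against 131 and 126 RPKM (-0.96 ± 0.041). In HLA-DQ, HLA-DQB1 had 104 and 113 against 43.0 and 41.0 RPKM (-1.37 ± 0.055) and HLA-DQA1 had 129 and 137 against 58.3 and 57.3 RPKM (-1.20 ± 0.045). The fitted difference of the beta chain was the larger in each of these heterodimers, and the difference between chains was not tested. HLA-DRB5 also fell (-1.29 ± 0.046), but it is nearly identical to HLA-DRB1 over long stretches and the share of reads between them is uncertain.

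The genes that load peptide onto class II molecules fell with them. CD74, the invariant chain that guides class II to the endosome, had 701 and 729.8 against 386 and 371 RPKM (-0.92 ± 0.036, adjusted p = 9.3e-07). HLA-DMA had 84.0 and 87.6 against 45.3 and 41.9 RPKM (-0.98 ± 0.053), and HLA-DMB, with which it forms the peptide exchange factor HLA-DM, had 40.5 and 39.4 against 18.7 and 18.3 RPKM (-1.11 ± 0.054). Of the HLA-DO chains, which inhibit HLA-DM, HLA-DOA had the largest fitted difference of the list (10.6 and 10.6 against 2.45 and 2.58 RPKM, -2.04 ± 0.10). HLA-DOB was the exception, with 2.74 and 2.31 against 2.73 and 2.89 RPKM (0.15 ± 0.15, adjusted p = 0.45) and overlapping libraries. The count of 11 called members was found with each library left out in turn and after the correction for GC content and length, where the median was -1.16.

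HLA class I genes and their peptide loading machinery had smaller differences. Of 17 tested entries, 3 were called lower and none higher, against 3.99% and 3.84% of all genes tested. The median was -0.34, and -0.22 after the correction. The called entries were HLA-F (53.9 and 60.5 against 33.1 and 31.3 RPKM, -0.83 ± 0.065), HLA-G (3.79 and 4.03 against 2.24 and 1.99 RPKM, -0.86 ± 0.14) and 1 of 2 entries named TAP2, a peptide transporter subunit (9.73 and 9.28 against 5.50 and 5.39 RPKM). HLA-B, a classical heavy chain, had 658 and 696 against 545 and 525 RPKM (-0.34 ± 0.038). B2M, the light chain of all class I molecules, had 1398 and 1408 against 1421 and 1474 RPKM.

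Genes of sterol synthesis were lower in the CM pair. SREBF2 encodes the membrane-bound factor that turns on these genes when cholesterol in the endoplasmic reticulum is low, and INSIG1 holds it back. Of 24 tested members, 8 were called lower and none higher, against 3.99% and 3.84% of all genes tested. In the lower direction 19 had an adjusted p under 0.05 in limma (20.2% of all genes tested did), and the median was -0.47. INSIG1 (hg19 chr7:155089485-155101945) had 277 and 298 RPKM in the SL pair and 124 and 124 RPKM in the CM pair (-1.21 ± 0.043, adjusted p = 4.8e-07).

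Along the pathway, HMGCS1, which makes HMG-CoA, had 108 and 116 against 68.1 and 73.9 RPKM (-0.66 ± 0.055). MVK, which phosphorylates mevalonate, had 24.3 and 26.3 against 15.3 and 13.4 RPKM (-0.81 ± 0.079), and MVD, which removes its carboxyl group, had 64.0 and 69.2 against 41.2 and 39.0 RPKM (-0.73 ± 0.055). FDPS, which makes farnesyl pyrophosphate, had 510.2 and 548 against 279 and 287 RPKM (-0.90 ± 0.041), and FDFT1, the squalene synthase, had 328 and 344 against 183 and 188 RPKM (-0.85 ± 0.038). The next enzyme, SQLE, had 108 and 116 against 102 and 98.9 RPKM (-0.16 ± 0.046, adjusted p = 0.027). LSS, which closes the sterol rings, had 72.5 and 79.6 against 34.0 and 32.9 RPKM (-1.18 ± 0.056), while CYP51A1, which acts on its product, had 57.2 and 59.4 against 54.9 and 54.9 RPKM (-0.09 ± 0.045, adjusted p = 0.16). The differences along the pathway were thus uneven, and SREBF2 itself had 101 and 104 against 78.9 and 77.6 RPKM (-0.39 ± 0.041). After the correction for GC content and length 6 genes were called, MVD (-0.50) being among those then under 1.5-fold, and the median was -0.46. The letters of a sterol regulatory element, TCACNCCAC, were found before 1 of 18 of these genes in the promoter table (SREBF2), against 1.09% of genes. CCAAT was found before 16 of 18, against 37.0% of genes.

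Fatty acid synthesis showed fewer calls. FASN, the fatty acid synthase, had 129 and 141 RPKM in the SL pair and 57.5 and 56.8 RPKM in the CM pair (-1.24 ± 0.050, adjusted p = 1.1e-06). SREBF1, the related factor for these genes, had 172 and 178 against 103 and 92.2 RPKM (-0.85 ± 0.055), and the desaturase SCD had 250.0 and 253 against 175 and 178 RPKM (-0.51 ± 0.034), just under 1.5-fold. Of 16 members, 3 were called lower and none higher (3.99% and 3.84% of all genes tested), with a median of -0.31. The remaining one was the citrate carrier SLC25A1 (-0.60 ± 0.053), which passed under 1.5-fold without SL replicate 2 or CM replicate 2 (at the smallest -0.56), after the GC and length correction (-0.38), at a pseudocount of 1 and after quantile normalization.

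**Figure D3:**
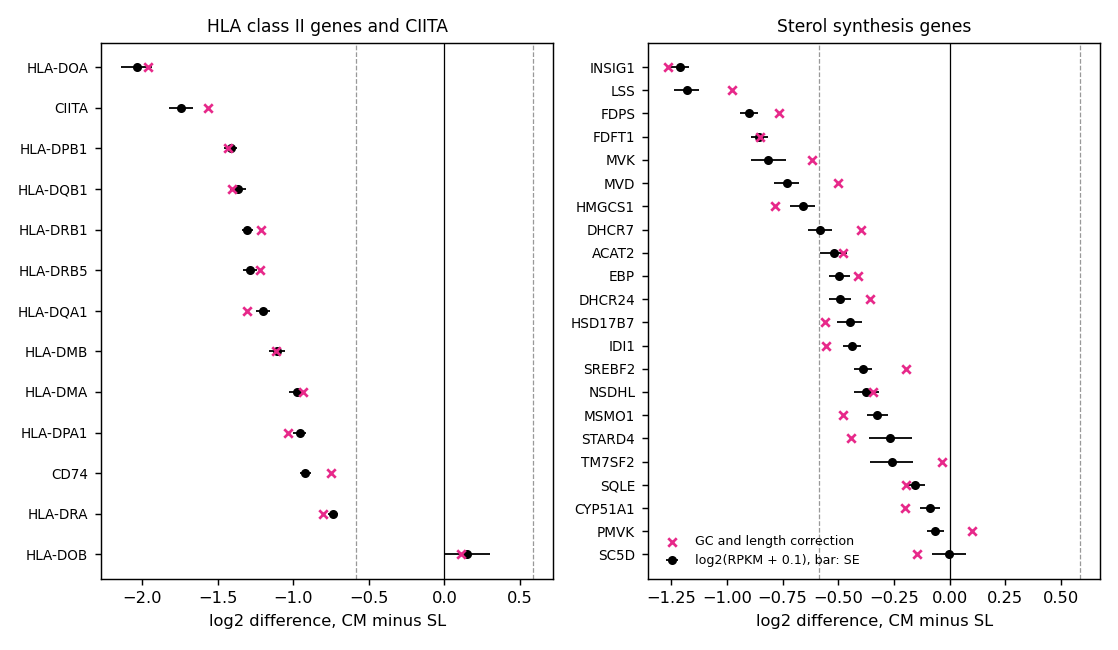
Log2 difference, CM minus SL, of the HLA class II genes with CIITA (left) and of sterol synthesis genes (right). Black points are the fit with bars of 1 standard error, crosses the value after correction for GC content and transcript length, and dashed lines 1.5-fold. All class II genes but HLA-DOB lie left of the dashed line, and the sterol genes spread from -1.21 (INSIG1) to nearly 0.

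Genes of amino acid supply and the ATF4 stress response were mostly lower in the CM pair. Of 30 tested members 6 were called lower and 1 higher, against 3.99% and 3.84% of all genes tested. The median was -0.30, and -0.20 after the GC and length correction. CHAC1, which degrades glutathione, had 7.83 and 7.78 against 3.17 and 2.56 RPKM (-1.42 ± 0.13). PHGDH, the first enzyme of serine synthesis, had 87.2 and 93.4 against 54.6 and 53.8 RPKM (-0.73 ± 0.048), and GPT2, an alanine transaminase, had 30.1 and 30.7 against 17.5 and 17.0 RPKM (-0.81 ± 0.057). PCK2 (-0.72 ± 0.066), CBS (-0.64 ± 0.071) and SHMT2 (-0.59 ± 0.033) were called too, but were under 1.5-fold after the correction (-0.50, -0.47 and -0.41). Without SL replicate 2 or CM replicate 2, CBS and SHMT2 were also not called, with differences as small as -0.58 and -0.58, nor was SHMT2 at a pseudocount of 1 (-0.58). ATF4 itself had 229 and 236 against 192 and 189.5 RPKM (-0.28 ± 0.035, adjusted p = 0.00061). ATF3, the higher gene, had 2.87 and 3.18 against 4.51 and 4.77 RPKM (0.60 ± 0.12) and was not called without SL replicate 1 or CM replicate 2 (at the smallest 0.53), nor after the correction (0.56), at a pseudocount of 1 (0.49), after quantile normalization or when genes of every level entered the fit.

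Early response genes of signalling included 4 called lower and 1 higher of 18 tested (3.99% and 3.84% of all genes tested), the higher one being ATF3. FOS, a subunit of the AP-1 factor, had 2.55 and 1.82 against 0.339 and 0.316 RPKM (-2.40 ± 0.26), and the phosphatase DUSP1 had 9.02 and 7.70 against 4.18 and 4.12 RPKM (-0.99 ± 0.11). The NF-kB list had 3 of 19 called lower and none higher, against the same shares of all genes tested. RELB, a subunit of the noncanonical factor, was 1 of the 3, at 26.4 and 27.3 against 17.6 and 15.3 RPKM (-0.71 ± 0.076). After the GC and length correction RELB was at -0.47 and 1 gene of the list was called, the cytokine gene LTB (-0.92). Neither was called when genes of every level entered the fit. Of the cytokine response genes, the kinase gene PIM1 had 62.6 and 65.2 against 31.8 and 30.9 RPKM (-1.02 ± 0.049) and the feedback inhibitor SOCS2 went the other way with 127 and 129 against 206 and 210.4 RPKM (0.70 ± 0.036). The chemokine gene CXCL10 had 163 and 161 against 90.7 and 94.9 RPKM (-0.80 ± 0.040).

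Antigen receptor signalling genes moved both ways. Of 19 tested, 6 were called lower and 1 higher, against 3.99% and 3.84% of all genes tested. ZAP70, a kinase of T cell receptor signalling that some B cell tumours also express, had 2.28 and 2.83 RPKM in the SL pair and 0.0284 and 0.195 RPKM in the CM pair (-3.76 ± 0.41, adjusted p = 0.00033). The T and NK cell markers summed to 0.155 and 0.13 against 1.32 and 1.13 RPKM in the same libraries, and their part in this difference was not tested. The phosphatase PTPN6 (SHP1) had 4.33 and 5.61 against 1.32 and 1.72 RPKM (-1.65 ± 0.18), and the exchange factor RASGRP2 had 5.75 and 8.70 against 2.74 and 2.25 RPKM (-1.47 ± 0.19). BLNK, the adaptor of the B cell receptor, was higher in the CM pair (2.76 and 2.42 against 5.90 and 6.12 RPKM, 1.19 ± 0.12). With a pseudocount of 1 the difference of ZAP70 was -1.68. ZAP70, PTPN6 and RASGRP2 were not called when genes of every level entered the fit.

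With 3.99% of all genes tested called lower and 3.84% higher, 3 of 20 interferon-stimulated genes were called lower and none higher. These were XAF1 (4.86 and 5.09 against 1.38 and 1.81 RPKM, -1.59 ± 0.16), the poly-ADP-ribose polymerase family gene PARP14 (8.21 and 7.57 against 3.58 and 3.60 RPKM, -1.11 ± 0.10) and the ISG15 ligase HERC5 (6.90 and 6.69 against 3.18 and 3.06 RPKM, -1.10 ± 0.10). SAMD9L had 38.1 and 33.1 against 48.3 and 51.4 RPKM (0.49 ± 0.072, adjusted p = 0.0014), a higher level in the CM pair that was under 1.5-fold.

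Genes of DNA replication showed small differences in 1 direction. None of 29 S phase genes was called, but 21 had an adjusted p under 0.05 in limma, all lower in the CM pair, against 20.2% of all genes tested, and the median was -0.28 (-0.23 after the GC and length correction). E2F1, the factor that starts this phase, had 46.6 and 51.5 against 33.7 and 33.3 RPKM (-0.55 ± 0.059). In the G2/M list of 29, 2 were called lower, against 3.99% of all genes tested. The 2 were the proliferation marker MKI67 (31.7 and 31.8 against 18.9 and 19.1 RPKM, -0.74 ± 0.054) and the mitotic kinase AURKB (80.4 and 85.8 against 51.6 and 51.5 RPKM, -0.69 ± 0.048). AURKB was just under 1.5-fold after the correction (-0.58).

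Hypoxia genes split in both directions, with 4 of 21 called higher and 2 lower, against 3.84% and 3.99% of all genes tested. ANKRD37 had 92.7 and 96.9 against 168 and 168 RPKM (0.82 ± 0.040), and the mitophagy receptor BNIP3 had 9.17 and 9.82 against 17.2 and 16.6 RPKM (0.82 ± 0.073). The collagen prolyl hydroxylase P4HA1 was higher as well (19.2 and 20.2 against 32.7 and 33.2 RPKM, 0.74 ± 0.057), whereas its paralog P4HA2 was lower (17.4 and 19.3 against 10.1 and 10.6 RPKM, -0.82 ± 0.077), as was C10orf10 (24.99 and 26.7 against 12.3 and 10.1 RPKM, -1.20 ± 0.097). Of 16 genes of the list in the promoter table, 12 held the hypoxia response core ACGTG, which 21.7% of genes held. In the glucose response list of 5, TXNIP and ARRDC4 were both called higher, against 3.84% of all genes tested. TXNIP, which limits glucose uptake, had 11.7 and 13.4 against 35.0 and 36.1 RPKM (1.497 ± 0.074, adjusted p = 3.6e-06), and its relative ARRDC4 had 0.849 and 0.892 against 2.21 and 2.22 RPKM (1.26 ± 0.19).

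The secretory pathway leaned the other way from most lists. Of 41 tested members, 21 had an adjusted p under 0.05 in the higher direction (17.8% of all genes tested did) and 3 in the lower, and the median was 0.14. DNAJB9, a cochaperone that XBP1 induces, was the 1 member called, where 7.82% of all genes tested were called in either direction. It had 11.4 and 12.4 against 18.9 and 19.8 RPKM (0.69 ± 0.072), and was just under 1.5-fold after the GC and length correction (0.56). The signal peptidase subunit SEC11C had 135 and 137 against 184 and 189.6 RPKM (0.46 ± 0.037), and the chaperone HSPA5 (BiP) had 153 and 157 against 186 and 189 RPKM (0.28 ± 0.036). MZB1, a cochaperone of antibody assembly, was among the 3 lower genes (503 and 531 against 443 and 429 RPKM, -0.24 ± 0.038).

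**Figure D4:**
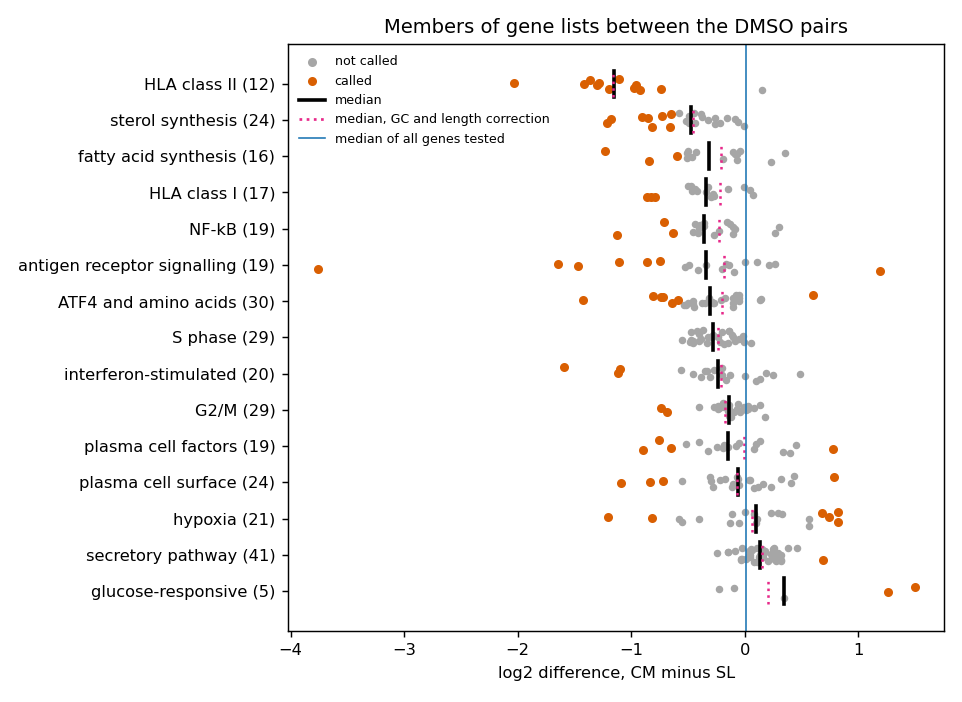
Log2 difference, CM minus SL, of each tested member of gene lists, with the number tested in parentheses, called members coloured, black bars for medians, dotted bars for medians after GC and length correction and a line for the median of all genes tested. The class II median lies at -1.15, the sterol median at -0.47, and the secretory pathway to the right of 0 at 0.14.

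Among single protein-coding genes averaging 10 RPKM or more, large decreases included IGFBP3, ATP2A3, LIMD2 and RASSF4. IGFBP3, which binds insulin-like growth factors (hg19 chr7:45951948-45961473), had 22.7 and 22.8 RPKM in the SL pair and 5.07 and 4.83 RPKM in the CM pair (-2.18 ± 0.075, adjusted p = 4.5e-07). ATP2A3, a calcium pump of the endoplasmic reticulum, had 41.3 and 43.6 against 13.6 and 13.2 RPKM (-1.66 ± 0.059). LIMD2 had 25.8 and 26.1 against 9.57 and 8.49 RPKM (-1.51 ± 0.076), and RASSF4 had 104 and 106 against 46.2 and 44.4 RPKM (-1.22 ± 0.044). At lower levels the tetraspanin CD81 had 5.48 and 6.56 against 1.06 and 1.43 RPKM (-2.19 ± 0.18), and NEURL had 14.5 and 15.9 against 3.77 and 3.64 RPKM (-2.00 ± 0.090). The Notch ligand gene DLL4 was under the minimum level and not tested, at 1.45 and 1.71 against 0.124 and 0.0901 RPKM.

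Large increases at the same levels included EDNRB, HBD, AMPD1, EIF4E3 and EAF2. EDNRB, an endothelin receptor, had 14.8 and 14.6 RPKM in the SL pair and 44.3 and 45.3 RPKM in the CM pair (1.60 ± 0.054, adjusted p = 4.4e-07). AMPD1, an AMP deaminase, had 6.29 and 6.13 against 15.2 and 14.0 RPKM (1.22 ± 0.082), and EAF2, a partner of elongation factors, had 15.2 and 16.4 against 31.6 and 33.2 RPKM (1.03 ± 0.064). EIF4E3, a cap-binding protein, had 7.77 and 7.89 against 16.5 and 16.4 RPKM (1.06 ± 0.071). The delta globin gene HBD had 6.47 and 6.43 against 19.4 and 18.7 RPKM (1.55 ± 0.073), and its neighbour HBB had 0.802 and 0.773 against 3.19 and 3.55 RPKM (1.97 ± 0.18). At lower levels ANXA1 (0.328 and 0.335 against 2.03 and 2.09 RPKM, 2.32 ± 0.24), SEMA3C (1.01 and 0.786 against 4.12 and 3.36 RPKM, 1.95 ± 0.19) and SEPP1 (1.07 and 0.763 against 4.02 and 3.53 RPKM, 1.94 ± 0.20) were higher.

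Of the proteins that the inhibitors of the series bind, CREBBP (CBP) had 21.8 and 19.8 against 15.0 and 17.6 RPKM (-0.36 ± 0.089, adjusted p = 0.015), and EP300 had 14.0 and 12.2 against 9.70 and 10.6 RPKM (-0.37 ± 0.090, adjusted p = 0.014). None of 10 genes of this list was called in either direction, and 6 had an adjusted p under 0.05 in limma in the lower direction, against 20.2% of all genes tested. The median of the list was -0.25, and -0.07 after the GC and length correction. The reference genes had small differences too, GAPDH with 648 and 670.5 against 599 and 600.0 RPKM (-0.14 ± 0.031, and 0.04 after the GC and length correction) and ACTB with 797 and 815 against 621 and 611 RPKM (-0.39 ± 0.030, and -0.26).

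Where genes share sequence, copies of a family differed unequally, and often in opposite directions. The variable gene IGHV3-33 had 141 and 139 RPKM in the SL pair and 1093 and 1129 RPKM in the CM pair (2.99 ± 0.033), IGHV3-30 had 824 and 813 against 1709.7 and 1754 RPKM (1.08 ± 0.029), and IGHV3-53 had 107 and 115 against 41.5 and 43.4 RPKM (-1.38 ± 0.050). The sum over the 47 genes of the IGHV3 family was 1317 and 1319.7 RPKM in the SL pair and 3011 and 3102 RPKM in the CM pair. IGLC7 had 104 and 104 against 15.1 and 12.6 RPKM (-2.90 ± 0.078) and IGLC5 the reverse with 4.87 and 4.95 against 30.4 and 27.1 RPKM (2.52 ± 0.081), whereas the lambda constant genes together had 2627 and 2841 RPKM against 2449 and 2467 RPKM. EEF1A1 had 516 and 524 against 1001 and 1004 RPKM (0.95 ± 0.029), while its copy EEF1A1P5 had 1357 and 1369 against 1397 and 1442 RPKM. Of the 19 tested genes of its family 6 were called higher and 3 lower, of 24 in the HNRNPA1 family 8 higher and 10 lower, and of 9 in the RPS26 family 5 higher and 3 lower. Over all genes tested 3.84% were called higher and 3.99% lower. RPS3A had 157 and 157 against 420.2 and 444 RPKM (1.46 ± 0.038), and of the 10 tested genes of its family 7 were higher and none lower. The share of reads between copies is uncertain, so none of these is read as a change of a single gene. Sums over whole families were also higher in the CM pair for EEF1A1, RPS3A, RPS26, RPS2 and HNRNPA1. The log2 ratios of these sums, in that order, were 0.37, 0.75, 0.49, 0.43 and 0.49. That of the lambda constant genes was -0.15, and the cause of these differences was not tested.

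The differences went with the base composition of the transcript. Over 10714 protein-coding genes, Spearman's correlation of the log2 difference with GC content was -0.53, given as a description over genes of the same libraries. A correlation was also present between replicates, at 0.33 for R2 minus R1 in the SL pair and -0.45 in the CM pair. With the genes split into 5 equal groups by GC content, in the lowest group the median difference was 0.15, with 83 genes called higher and 13 lower, and in the highest group it was -0.23, with 22 higher and 162 lower. After each library's trend with GC content and transcript length was removed, 912 of 14414 genes were called, 456 in each direction (6.33% in all and 3.16% in each), and 809 of 1121 calls were made again in the same direction. The part of base composition in any single difference was not tested beyond this correction.

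**Figure D5:**
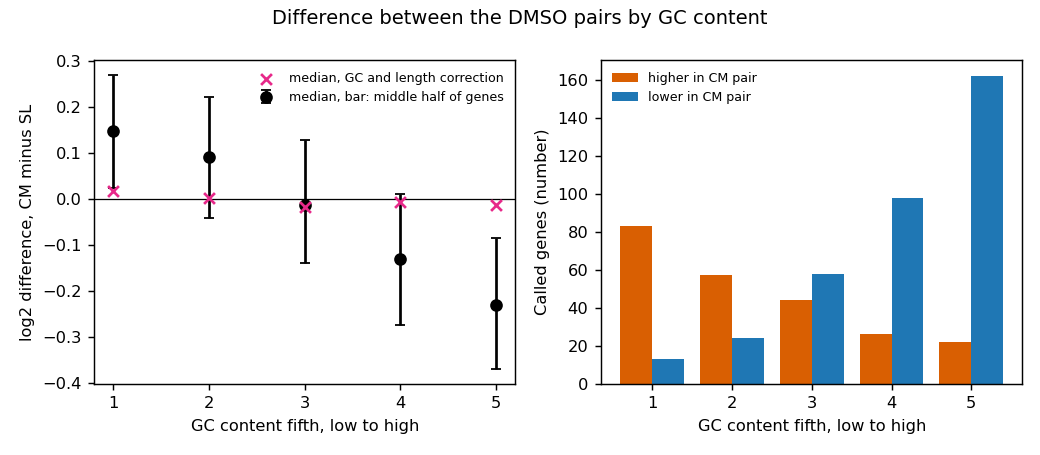
Protein-coding genes in 5 equal groups by GC content, from low to high. Left, the median log2 difference, CM minus SL, with bars over the middle of the distribution (25th to 75th percentile) and crosses for the median after correction, falling from 0.15 to -0.23 before correction. Right, the number of genes called higher and lower in the CM pair, from 83 and 13 in the lowest group to 22 and 162 in the highest.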

How the data were processed

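RNA of LP-1 cells was purified on RNeasy columns with DNase digestion, and library preparation and sequencing were done by a service provider. The authors deposited RPKM values per gene in 1 table for the series. The submitters' processing notes name TopHat 1.4.1, Cufflinks and hg19, and their roles and the counting of shared reads are not given in the sources used here. The table also holds 24 columns that match no sample of the series and were not used. Of 63129 rows, 12 with a missing value were removed.

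The 4 DMSO libraries were grouped by title. Genes averaging 1 RPKM or more were fitted on log2(RPKM + 0.1) in limma 3.58.1 (R 4.3.3; lmFit and eBayes with an intensity trend, 2 residual and 6.31 prior degrees of freedom), with Benjamini-Hochberg adjustment over all genes tested. A gene was called at an adjusted p under 0.05 and at least 1.5-fold. An exact permutation test of 2 against 2 libraries cannot go below p = 0.333 and was not used. In simulated data for this comparison with 200 of 14625 genes changed, 92% of 2-fold and 100% of 4-fold changes were called, and 4 unchanged genes. Noise was drawn independently for each gene, with no other shift between the pairs and no trend with GC content. The simulation therefore does not measure the rate of false calls in these data. Depth was estimated from long genes with low values, of which 58.9% to 74.6% were whole reads within 0.1 read, too few to recover counts. It is an estimate, and no counting intervals were computed from it.

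Gene lists were described by their counts and medians with no set test. Named genes were the 20 most abundant, lineage genes, the 12 called protein-coding genes with the largest difference in each direction over all levels and likewise at a mean of at least 10 RPKM, and up to 6 called members of each list, of which the text gives a selection. The libraries, lists and named genes were chosen with earlier results of these data known. Gene type, transcript length and GC content came from GENCODE 29, which matched 14414 of the tested genes, and promoters from RefSeq (GRCh38.p14), neither of which was used for hg19 coordinates. Alternatives were a pseudocount of 1, a minimum of 5 RPKM or none, median scaling, quantile normalization, no intensity trend, a 2-fold threshold, each library left out and the replicate number as a block. The GC and length correction (loess per library, span 0.3), the restriction to protein-coding genes and the X box letters were chosen after seeing the data. So was CTGATTGG, a longer form of the class II CCAAT box. It occurred before 4 of 11 class II genes and 6 of 18 sterol synthesis genes, against 4.59% of genes. Other motifs were searched as well, of which the text gives a selection. Values of some single genes are not reported here, and these genes remain in the counts and medians.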

Additional observations from a re-analysis of the deposited data

How the results depend on the processing

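With a minimum of 5 RPKM 528 genes were called, 245 higher and 283 lower in the CM pair. Among protein-coding genes alone, fitted by themselves, 602 were called, 241 higher and 361 lower, and at a threshold of 2-fold 423 were called, 228 higher and 195 lower. These alternatives test fewer genes or set a higher threshold by construction. Leaving out 1 library gave 1068 to 1282 calls, 515 to 631 higher and 553 to 657 lower, where the lone library of a pair is assumed to vary like the other pair. Every other alternative gave a count within 1.5 times the 1144 reported. The difference of GAPDH reversed to 0.0393 after the GC and length correction, alone and with the replicate block, and the cause was not tested.

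The replicate number as a block gave 1206 calls, 602 higher and 604 lower, and 909 together with the GC and length correction. The labels do not say that a number marks a shared culture or day, and the deviations of same-numbered libraries from their pair means correlated at 0.063, so the numbers were not taken as a pairing. With 2 libraries in each pair, and a pair that shares its experiment and sequencing, a difference between the pairs is not a difference between conditions.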
